A study of Mus musculus with 6 samples.

Results

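RNase H, 5′ to 3′ exonuclease and paraspeckle protein genes were followed in 3T3 cells treated with a GapmeR, an antisense oligonucleotide with a DNA centre that directs RNase H to its target RNA. The 9 genes were Rnaseh1, Rnaseh2a, Rnaseh2b, Rnaseh2c, Xrn1, Xrn2, Nono, Sfpq and Pspc1, chosen because RNase H carries out GapmeR cleavage and paraspeckle proteins bind such oligonucleotides. Probes were taken by the gene name given on the array, which yielded 14 probes among 55681 and 9 genes among 35527 gene names. 3T3 is an established line of mouse embryonic fibroblasts. Cultures received GapmeR Ntep, directed against the long non-coding RNA Ntep, or GapmeR control, each at 50 nM for 48 h, so that every culture carried a GapmeR and no culture was without one. In each of 3 independent experiments 1 culture per GapmeR was profiled, which gave 3 arrays per group, all on 1 slide. One sequence of GapmeR stands for each group, and the RNA is that of whole cultures.

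RNase H enzymes cut the RNA strand of RNA-DNA hybrids. RNase H1 is a single-chain enzyme of nucleus and mitochondria and performs the cleavage on which GapmeRs rely, whereas RNase H2 consists of the catalytic subunit Rnaseh2a with Rnaseh2b and Rnaseh2c and also removes ribonucleotides from DNA. The 5′ to 3′ exonucleases Xrn1, in the cytoplasm, and Xrn2, in the nucleus, degrade RNA from a free 5′ end, including the downstream fragments left by cleavage. Nono, Sfpq and Pspc1 belong to 1 family of nuclear RNA- and DNA-binding proteins, the DBHS proteins, which build paraspeckles on the non-coding RNA Neat1.

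Each value below reports the stretch of transcript that a probe of 60 bases covers. The probe sequences are shown from 5′ to 3′ so that the 4 positions in Rnaseh2a, both positions in Sfpq and the near-identical pair in Nono can be told apart. They are whole for Rnaseh2b, Xrn1 and the first 2 Rnaseh2a probes, and otherwise limited to 30 bases. Coordinates are those of the probes in mm9 as given by the array files, and positions count along the transcript that the files name. Whether a probe lies in coding sequence or a UTR is not given there. Capitals mark bases at which the Nono probes differ.
Rnaseh1, position 1036, chr12:29344036-29344095, plus strand: ctgtggcacagcttggtgagacgtgcttac
Rnaseh2a, position 516, chr8:87483867-87483926, minus strand: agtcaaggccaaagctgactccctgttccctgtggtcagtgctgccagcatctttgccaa
Rnaseh2a, position 798, chr8:87481695-87481754, minus strand: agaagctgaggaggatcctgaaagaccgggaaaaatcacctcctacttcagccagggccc
Rnaseh2a, position 1009, chr8:87481484-87481543, minus strand: aaggtctgatagcagtgcctgtggccagca
Rnaseh2a, position 1984, chr8:87480509-87480568, minus strand: ctacatagttccacatcagtcaaggctaca
Rnaseh2b, position 846, chr14:62991219-62991278, plus strand: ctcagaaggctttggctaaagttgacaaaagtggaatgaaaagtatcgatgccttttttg
Rnaseh2c, position 547, chr19:5602861-5602920, plus strand: atgagaatgacagtcacagatcccttctca
Xrn1, position 4538, chr9:95946013-95946072, plus strand: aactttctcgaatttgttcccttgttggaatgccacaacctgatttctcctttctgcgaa
Xrn2, position 3244, chr2:146903611-146903670, plus strand: gctgcacattctgcagacgagcatatattg
Nono, position 2402, chrX:98643867-98643926, plus strand: agacTtcatgcAgcatcaccttattaaaat
Nono, position 2404, chrX:98643869-98643928, plus strand: agacGtcatgcGgcatcaccttattaaaat
Sfpq, position 2984, chr4:126707977-126708036, plus strand: cccaagccctacaaatggcttgtactgaac
Sfpq, position 3427, chr4:126708420-126708479, plus strand: ttcgttagagcaagagactttctgacttga
Pspc1, position 1731, chr14:57341870-57341929, minus strand: aatggttcattcctgactgtttagaaaaac

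The Nono probes overlap by 58 bases and differ at 3 of them. The substitutions are G19T, G26A and G45A, counted from 1 at the 5′ end of the probe at position 2404, with the base of that probe given first. The first 2 of them lie in the stretch shown. No other probe of the array shares 20 consecutive bases with a probe of the 9 genes on either strand. The Nono probes share no such stretch with each other, so this search cannot detect near-identical sequences. Which Nono probe matches the Nono transcript was not determined.

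Between 43.7% and 53.3% of probes per array were well above background. Of 10 fibroblast markers, 9 were well above background on all 6 arrays, and Lum was so on 1. Their summed signal was 644140 to 829039 with GapmeR Ntep and 921419 to 1005300.5 with GapmeR control. Of 15 markers of epithelial, leukocyte, endothelial and muscle cells, 7 were well above background on all 6 arrays and 5 on none, among them Ptprc, Cdh5 and Myod1. The summed signal of the 4 leukocyte markers was 19594 to 45968 with GapmeR Ntep and 10797 to 14806 with GapmeR control, nearly all of it from Itgam. The summed signal of the 4 epithelial markers was 783 to 2656 against 477 to 1487, and that of the 4 muscle markers 2724 to 5460 against 3382 to 7905, so both overlapped. For the 3 endothelial markers the sums were 226 to 250.2 and 171 to 216. The part of these marker signals in the results below was not tested.

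The targeted RNA was checked first. A single probe at chr16:98283712-98283771 reports Ntep under the name A630089N07Rik, and its signal exceeded background clearly on each array. In experiments 1, 2 and 3 it read 472, 91.5 and 226 where the label was GapmeR Ntep, and 271, 272 and 361 where it was GapmeR control. The probe was thus dimmer with GapmeR Ntep in experiments 2 and 3 and brighter in experiment 1. The log2 difference was -0.48 (SE 0.58, limma adjusted p = 0.632), smaller than the spread between arrays, and it was 0.13 without GapmeR Ntep replicate 2. Arrays are therefore named by their labels, and every direction below is that of the label. For 11 of the 14 probes described below, the difference in experiment 1 had the same sign as in both other experiments, against 59.0% of all probes tested. This count cannot check the labels, since the true direction of these probes is not known.

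All 14 probes were well above background on all 6 arrays, none of their spots was marked as an outlier or saturated, and all 14 passed the limit on dim probes. Signals are array intensities after quantile normalization, and differences are log2 of GapmeR Ntep minus log2 of GapmeR control, so that -1 is a halving. Compared with GapmeR control, 10 probes were lower and 4 higher. Of all 30990 probes tested, 45.5% were lower. The median difference was -0.35 over the 14 probes and 0.06 over all probes tested. These 14 are not independent readings, since 4 belong to Rnaseh2a and the Nono probes overlap. By the brightest probe per gene, 3 of the 6 RNase H and exonuclease genes were lower, with a median difference of -0.10. Of Nono, Sfpq and Pspc1, 2 of 3 were lower, with a median of -0.14. Over all genes tested in this way, 45.7% were lower. The 3 experiments had the same sign for 11 of the 14, against 59.0% of all probes tested.

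At a fold change of at least 2 with an unadjusted p under 0.01, the thresholds of the study, 2 of the 14 probes passed, Pspc1 and Rnaseh2c, both lower. Over all probes tested 8.13% passed (3.08% higher and 5.06% lower). At an adjusted p under 0.05 only Pspc1 passed, against 5.30% of all probes (2.09% higher and 3.21% lower). The groups did not overlap for 5 of the 14 probes, 4 lower and 1 higher, against 32.1% of all probes (15.1% lower and 17.0% higher). With both directions together, the counts of 2, 1 and 5 of 14 lie near or little above the shares of the whole array. The counts of lower probes, 2, 1 and 4, lie further above the shares of lower probes, and whether they exceed them was not tested. The plots of signal by array and of the difference by experiment show all 14.

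**Figure D1:**
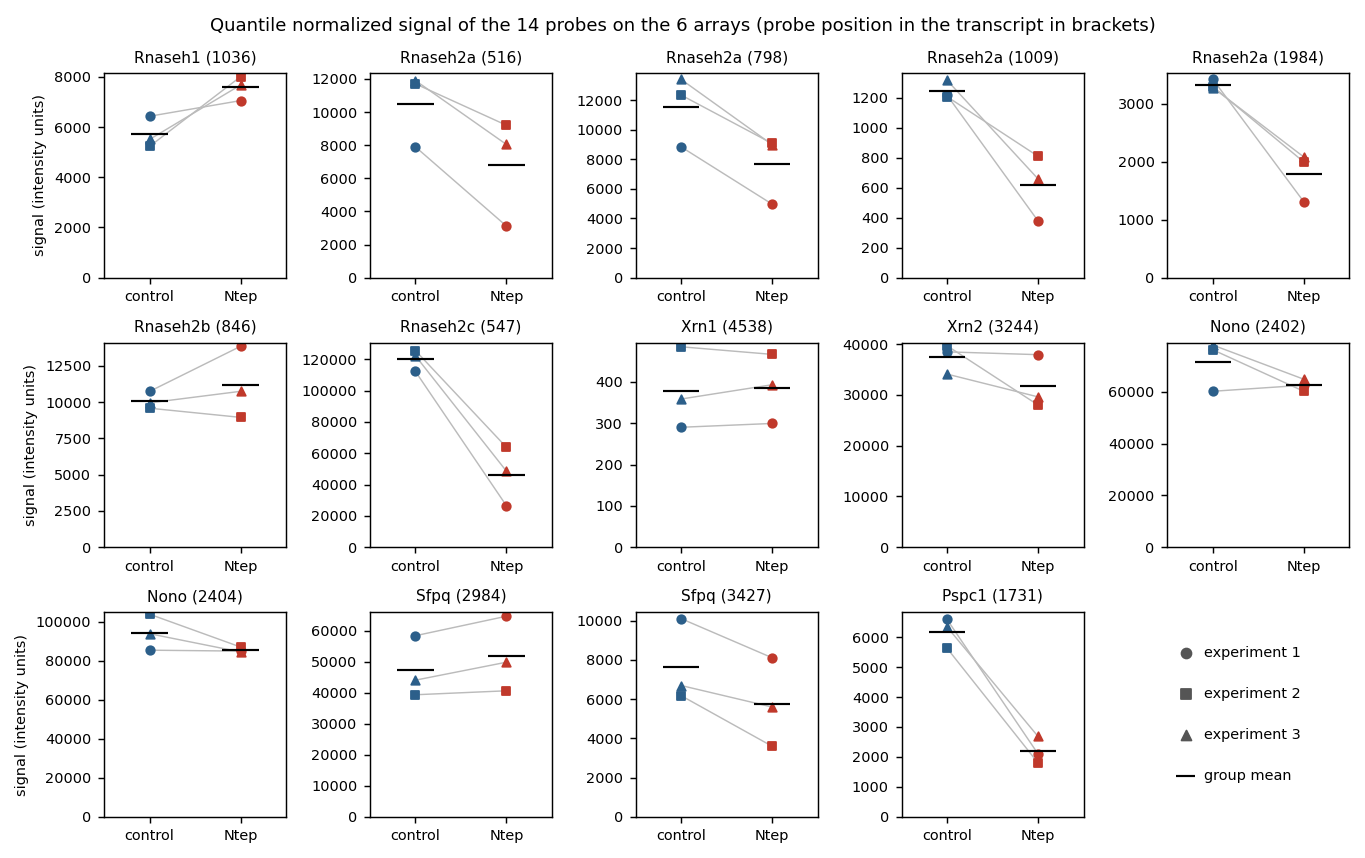
Quantile normalized signal (y axis, intensity units, linear from 0) of each of the 14 probes on the 3 GapmeR control arrays (blue) and the 3 GapmeR Ntep arrays (red); symbols give the experiment, grey lines join arrays of 1 experiment and black bars are group means. Points of Pspc1, Rnaseh2c and the Rnaseh2a probes at positions 1009 and 1984 lie lower in all GapmeR Ntep arrays than in any control array, those of Rnaseh1 lie higher, and the other 9 probes overlap.

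**Figure D2:**
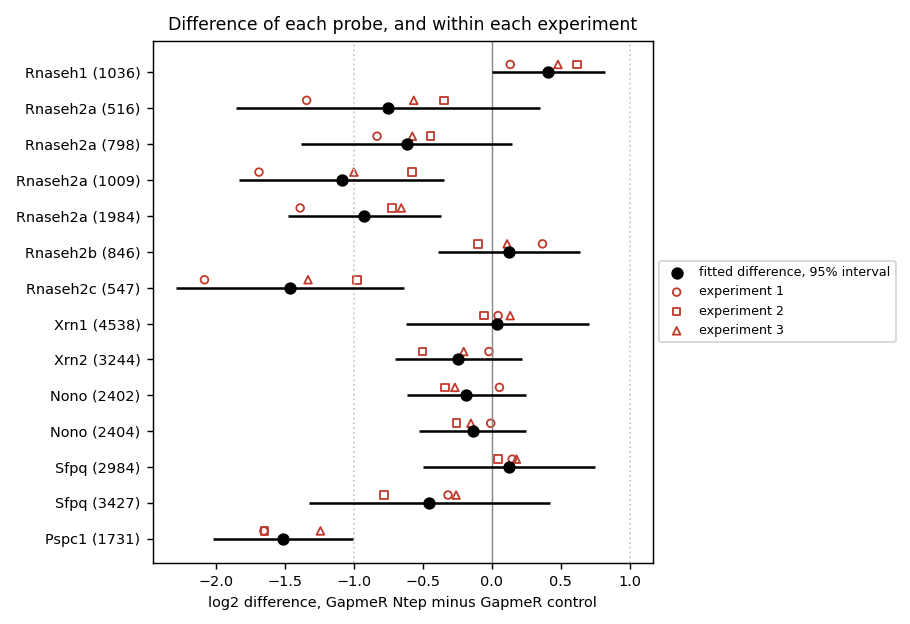
Log2 difference, GapmeR Ntep minus GapmeR control (x axis), of each probe, with its position in the transcript in brackets; black points are limma estimates with 95% confidence intervals, open symbols are the differences within each experiment and dotted lines mark a 2-fold change. The intervals of Pspc1, Rnaseh2c and the Rnaseh2a probes at 1009 and 1984 lie below 0, and that of Rnaseh1 just reaches it at its lower end.

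Rnaseh1, the enzyme of GapmeR cleavage, had a higher signal with GapmeR Ntep but did not pass either threshold. The signal was 7053, 8005 and 7675 with GapmeR Ntep in experiments 1, 2 and 3 and 6430, 5229 and 5507 with GapmeR control. Every GapmeR Ntep array was above every control array, with the narrowest gap in experiment 1. Means were 7578 ± 483 and 5722 ± 629 (SD, n = 3 each), a ratio of 1.33. The log2 difference was 0.41 (SE 0.17, 95% interval -0.0004 to 0.82, limma adjusted p = 0.200), and within experiments it was 0.13, 0.61 and 0.48. Among probes tested, 26.7% had a difference higher still. The difference ranged from 0.35 to 0.55 over the 19 alternative ways of processing. It passed the adjusted threshold in 1 of them, with array weights (limma adjusted p = 0.0208), where 33.1% of all probes passed.

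Of the RNase H2 subunits, Rnaseh2c passed the 2-fold threshold and no subunit passed after adjustment. Signals of Rnaseh2c and of all 4 Rnaseh2a probes were lower on average with GapmeR Ntep, and that of Rnaseh2b was slightly higher. The groups overlapped for Rnaseh2b and for Rnaseh2a at positions 516 and 798. In RNA of whole cultures, less of a transcript per cell and fewer cells that hold it cannot be told apart.

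Rnaseh2c, an accessory subunit that the complex needs for activity, was read by a single probe. It had 26539, 63855 and 48606 intensity units with GapmeR Ntep and 112284, 125609 and 122272 with GapmeR control. The groups were widely separated, with the lowest signal on the GapmeR Ntep array of experiment 1. Means were 46333 ± 18761 and 120055 ± 6933 (SD, n = 3 each), so that the control signal was 2.76 times as high by the fitted difference of -1.46 (SE 0.34, 95% interval -2.29 to -0.64). The unadjusted p was 0.00485 in limma, with an adjusted p of 0.0636. The adjusted p was 0.0444 when the experiments were fitted as blocks, a fit in which 13.8% of all probes passed. Within experiments the difference was -2.08, -0.98 and -1.33, lower in 3 of 3. Without experiment 1 it was -1.15 (limma adjusted p = 0.0646). The unadjusted p rose above 0.01 when GapmeR control replicate 1, 2 or 3 or GapmeR Ntep replicate 3 was left out (0.0144, 0.0181, 0.0170 and 0.0125 in limma). It also did so without an intensity limit (0.0122 in limma) and with the methods' t-test. The 2-fold threshold thus held in 13 of 19 alternatives.

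Rnaseh2a, the catalytic subunit, was covered at 4 positions. At position 1984 the signal was 1306, 1993 and 2079 with GapmeR Ntep and 3418, 3293 and 3276 with GapmeR control. At position 1009 it was 379, 810.4 and 659 against 1218, 1208 and 1318. At both positions every GapmeR Ntep array lay below every control array, and the array of experiment 1 lay lowest. The fitted difference was -0.92 (SE 0.23, limma adjusted p = 0.0714) at position 1984 and -1.09 (SE 0.30, limma adjusted p = 0.0934) at position 1009, so neither passed. Within experiments it was -1.39, -0.72 and -0.66 at position 1984 and -1.69, -0.58 and -0.999 at position 1009. The probe at position 1009 passed 2-fold with an unadjusted p under 0.01 without GapmeR Ntep replicate 2 (-1.32, limma unadjusted p = 0.00614), with an intensity trend and with probes well above background. That at position 1984 did so without GapmeR Ntep replicate 3 (-1.04, limma unadjusted p = 0.00897).

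The other positions lie further 5′ in the transcript, and there the groups overlapped. At position 516 the signal was 3118, 9204 and 8043 with GapmeR Ntep and 7900.1, 11703 and 11902 with GapmeR control. At position 798 it was 4964, 9066 and 8984 against 8833, 12334 and 13390.0. In both cases the overlap came from the control array of experiment 1, which lay below GapmeR Ntep arrays of the other experiments, while each GapmeR Ntep array lay below its own control. The differences were -0.75 (SE 0.45, limma adjusted p = 0.355) at position 516 and -0.62 (SE 0.31, limma adjusted p = 0.281) at position 798. Without GapmeR Ntep replicate 1 they were -0.26 and -0.33 (limma adjusted p = 0.608 and 0.493), and without both arrays of experiment 1 they were -0.46 and -0.51. All 4 positions stayed lower in 19 of 19 alternatives, and whether the positions differ from each other was not tested.

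In Rnaseh2b, the remaining subunit, no difference was resolved. The signal was 13849, 8951 and 10748 with GapmeR Ntep and 10740.4, 9584 and 9953 with GapmeR control, so the control arrays lay inside the range of the others. The difference was 0.13 (SE 0.21, 95% interval -0.39 to 0.64, limma adjusted p = 0.735), and it turned to -0.040 without GapmeR Ntep replicate 1. Whether Rnaseh2c and Rnaseh2b differ in their response was not tested.

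For Rnaseh2c and all 4 Rnaseh2a probes, the largest difference was in experiment 1, in which the Ntep probe was brighter on the array labelled GapmeR Ntep. That array also had the lowest mean correlation with the arrays of its own label (0.978, against 0.982 to 0.987 for the others). Its mean correlation with the other label was lower still (0.964). GapmeR Ntep replicate 2 was the only array closer to the other label (0.9834) than to its own (0.9825). Without experiment 1 the Rnaseh2a difference was -0.69 at position 1984 and -0.79 at position 1009 (limma adjusted p = 0.0751 and 0.0882).

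Neither exonuclease differed beyond the spread between arrays. Xrn1, the cytoplasmic enzyme, had 299, 466 and 393 intensity units with GapmeR Ntep and 290.2, 485 and 359 with GapmeR control. Signals followed the experiment rather than the GapmeR, and the difference was 0.04 (SE 0.27, 95% interval -0.62 to 0.71, limma adjusted p = 0.939). It was -0.13 without GapmeR control replicate 1 and -0.11 without GapmeR Ntep replicate 2.

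Xrn2, the nuclear enzyme, had 37915, 28000 and 29600 with GapmeR Ntep and 38466, 39673 and 34090 with GapmeR control. Each GapmeR Ntep array was below its own control, by 0.02, 0.50 and 0.20 on the log2 scale, but the groups overlapped through experiment 1. The fitted difference was -0.24 (SE 0.19, 95% interval -0.70 to 0.22, limma adjusted p = 0.470). These intervals leave room for changes of Xrn1 of up to 0.71 and of Xrn2 down to -0.70, so small shifts were not detectable with 3 arrays per group.

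Among the DBHS genes, the signal of the only Pspc1 probe fell, and the probes of Nono and Sfpq overlapped between groups. Pspc1 had 2099, 1798 and 2682 intensity units with GapmeR Ntep and 6590.2, 5628.8 and 6340.0 with GapmeR control. The groups were widely separated. Means were 2193 ± 450 and 6186 ± 499 (SD, n = 3 each). The difference was -1.51 (SE 0.21, 95% interval -2.02 to -1.01), a control signal 2.85 times as high, with an unadjusted p of 0.000312 and an adjusted p of 0.0276 in limma. It was lower in 3 of 3 experiments, with differences of -1.65, -1.65 and -1.24, and 4.29% of all probes tested were lower still (4.70% for Rnaseh2c).

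The fall of Pspc1 kept its size under every alternative tried, from -1.67 to -1.28, and passed the threshold of 2-fold with an unadjusted p under 0.01 in 19 of 19. The adjusted p passed in 11 of 19. It was 0.0431 without GapmeR Ntep replicate 2, but 0.0589, 0.0627, 0.130, 0.0874 and 0.111 in limma without GapmeR Ntep replicate 1, control 1, control 2, GapmeR Ntep 3 and control 3. Without experiment 1 the difference was -1.44 (limma adjusted p = 0.0674).

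Nono was covered by the overlapping probes described above. At position 2402 the signal was 62546, 60167 and 64830.2 with GapmeR Ntep and 60194, 76203 and 78026 with GapmeR control. At position 2404 it was 85035, 87128 and 84582 against 85505, 103984 and 93959. Both probes had the same pattern, nearly equal signals in experiment 1 and lower signals with GapmeR Ntep in experiments 2 and 3. The differences were -0.18 (SE 0.18, 95% interval -0.61 to 0.25, limma adjusted p = 0.542) and -0.14 (SE 0.16, 95% interval -0.53 to 0.25, limma adjusted p = 0.616). Under 75th percentile scaling they were 0.047 and 0.10, where the median of all probes was 0.22.

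Sfpq gave different values at its positions. At position 2984 the signal was 64660, 40618 and 49832 with GapmeR Ntep and 58373, 39337 and 44043 with GapmeR control, with each GapmeR Ntep array above its control. At position 3427 it was 8111, 3594 and 5597 against 10107, 6177 and 6696, with each GapmeR Ntep array below its control. Neither passed, with differences of 0.12 (SE 0.25, 95% interval -0.50 to 0.74, limma adjusted p = 0.788) and -0.45 (SE 0.36, 95% interval -1.33 to 0.42, limma adjusted p = 0.477). The value at position 3427 was -0.74 without GapmeR Ntep replicate 1, -0.15 without GapmeR Ntep replicate 2 and -0.23 without GapmeR control replicate 1. Which transcripts of Sfpq each probe detects was not analysed here.

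Whether Pspc1 changed relative to its partners was tested within arrays. The log2 ratio of Pspc1 to a partner probe was lower with GapmeR Ntep, with differences of -1.33 and -1.37 for the Nono probes at 2402 and 2404, and of -1.64 and -1.06 for the Sfpq probes at 2984 and 3427. In all 4 the groups did not overlap, and the exact permutation p was 0.1 (two-sided), the smallest that 3 against 3 arrays allow, or 0.125 adjusted over the 5 pairs compared. All 4 ratios share the Pspc1 probe, whose own groups did not overlap, so they repeat its fall and are not separate readings. How often such ratios separate the groups over the whole array was not computed. The ratio of Nono to Sfpq, brighter probes, differed by -0.26 (exact permutation p = 0.5). Its groups overlapped, although it was lower in 3 of 3 experiments (-0.16, -0.30 and -0.33). Against the Sfpq probe at position 3427, a pair added after seeing the data, the ratio of Nono differed by 0.31 (exact permutation p = 0.5) and was higher in 3 of 3 experiments (0.31, 0.53 and 0.11). The direction of Nono relative to Sfpq thus depended on the Sfpq probe. A permutation test in this design cannot pass 0.05.

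**Figure D3:**
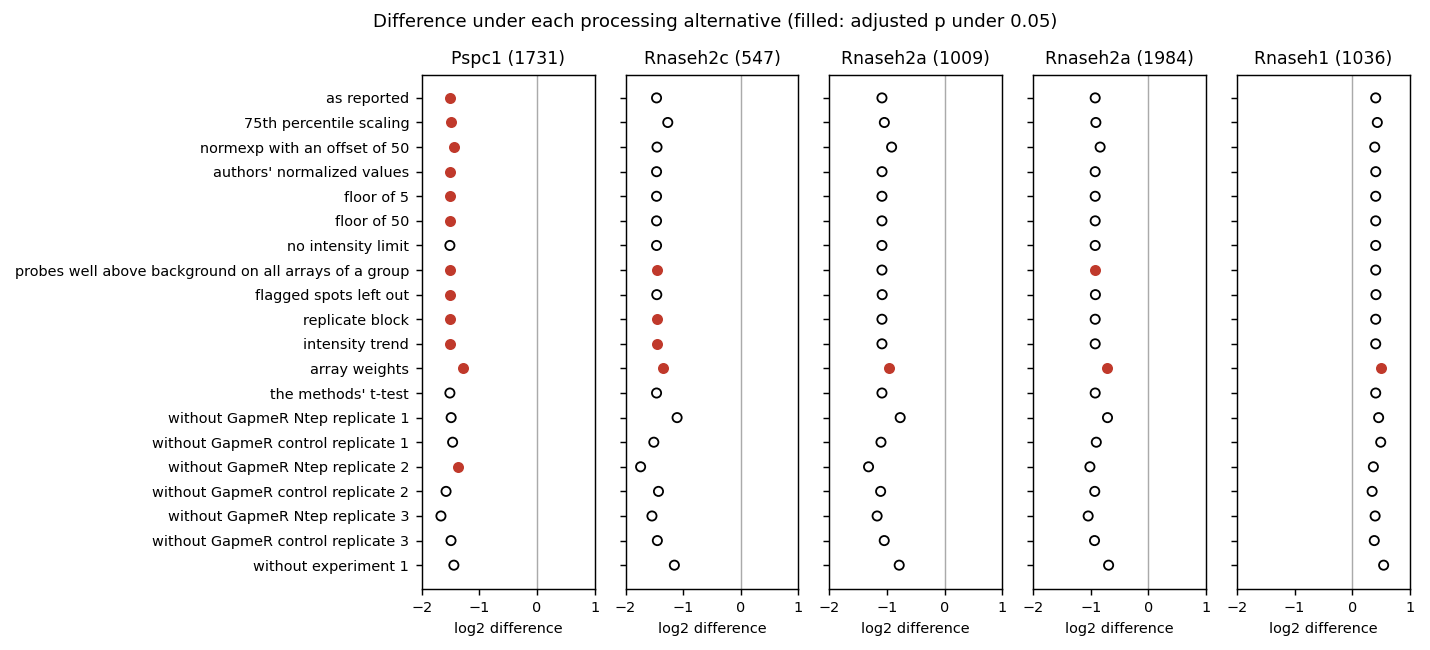
Log2 difference, GapmeR Ntep minus GapmeR control (x axis), of 5 probes as reported and under 19 alternatives (rows); filled points have an adjusted p under 0.05. Pspc1 spans -1.67 to -1.28, Rnaseh2c -1.74 to -1.11 and Rnaseh1 0.35 to 0.55, and no point of the 5 probes crosses 0.

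Other genes that act with these proteins were read from 7 lists, each gene by its brightest probe. Of 125 genes 120 were tested, with 68 higher, 52 lower and a median difference of 0.04. Over the brightest probe of all 22094 gene names tested, 45.7% were lower and the median was 0.06. At a fold change of at least 2 with unadjusted p under 0.01, 4 list genes passed, all lower, against 7.88% of all genes. At an adjusted p under 0.05, 3 passed, 1 higher and 2 lower, against 5.16% of all genes. The groups did not overlap for 27 higher and 21 lower list genes, against 32.5% of all genes. With experiments as blocks 10 list genes passed after adjustment, against 13.9% of all genes.

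Paraspeckle components other than the DBHS proteins were split evenly. Of 35 genes 31 were tested, 16 higher and 15 lower, with a median difference of 0.001. Neat1, the RNA scaffold of paraspeckles, had 24131, 13536 and 18331 intensity units with GapmeR Ntep and 26242, 12370.2 and 8407 with GapmeR control. Its groups overlapped, and its difference was 0.38 (SE 0.46, limma adjusted p = 0.636). The value was 0.01 without GapmeR control replicate 3, 0.17 without GapmeR Ntep replicate 1, 0.59 without GapmeR Ntep replicate 2, 0.63 without experiment 1, 0.75 with array weights and 0.83 without GapmeR control replicate 1 (limma adjusted p = 0.187).

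Within this list 2 of 31 tested genes passed both thresholds, and both fell. Of all genes, 7.88% passed at 2-fold and 5.16% after adjustment. Cirbp, a cold-inducible RNA-binding protein, had 2346, 4290 and 3556 with GapmeR Ntep and 8072, 8862 and 10723 with GapmeR control, a difference of -1.47 (SE 0.27, limma adjusted p = 0.0406). Pced1a, named Fam113a in the files, had 1707, 3051 and 2211 against 6677, 7053 and 5981, a difference of -1.54 (SE 0.25, limma adjusted p = 0.0336). In both genes every GapmeR Ntep array was below every control array. A dimmer probe of Pced1a gave -1.09 (limma adjusted p = 0.0649). As for Pspc1, the adjusted p of both passed 0.05 without GapmeR Ntep replicate 2 and missed it without any 1 of the other 5 arrays, reaching 0.160 for Cirbp and 0.148 for Pced1a without GapmeR control replicate 2.

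Among factors that work beside the exonucleases, a single gene passed a threshold, that on the adjusted p. Over all genes tested, 5.16% passed that threshold and 7.88% passed at 2-fold. None of 17 decapping and P-body genes, which feed RNA to Xrn1, passed either threshold (12 higher, 5 lower, median 0.16). None of 18 exosome genes, which degrade RNA from the 3′ end, passed (9 higher, 9 lower, median 0.01). None of 16 genes of Xrn2 partners and 3′ end cleavage passed, although 13 were higher and 3 lower, with a median of 0.35. Of 12 deadenylase genes tested, 3 were higher and 9 lower, with a median of -0.18.

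That gene was Cnot9, named Rqcd1 in the files, a subunit of the CCR4-NOT deadenylase. Its signal was 2901, 2216 and 2675 with GapmeR Ntep and 1486, 1432 and 1297 with GapmeR control. The groups did not overlap, and the gene rose by 0.88 (SE 0.18, limma adjusted p = 0.0491). The call was lost when any 1 of the 6 arrays was left out (limma adjusted p = 0.0524 to 0.188), and under 75th percentile scaling (0.0645).

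Of 12 genes that handle RNA-DNA hybrids, 5 were higher and 7 lower, with a median of -0.05. Trex1, a 3′ to 5′ DNA exonuclease of the cytosol, passed the 2-fold threshold alone, as did 7.88% of all genes with or without adjustment. It had 14556, 26142 and 26775 with GapmeR Ntep and 44615, 50635 and 47931 with GapmeR control. The lowest control array was well above the highest GapmeR Ntep array, and the difference was -1.14 (SE 0.28, limma unadjusted p = 0.00626 and adjusted p = 0.0704).

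Of 14 other proteins known to bind oligonucleotides, 10 were higher and 4 lower, with a median of 0.04. Xrcc5, which encodes the Ku80 subunit of the Ku DNA-end-binding complex, had 2629, 6418 and 4498 with GapmeR Ntep and 9354, 15369 and 14650 with GapmeR control. The groups did not overlap, and the difference was -1.60 (SE 0.38, limma unadjusted p = 0.00577 and adjusted p = 0.0682). When the experiments were fitted as blocks, Trex1 had an adjusted p of 0.0468 and Xrcc5 of 0.0314, in a fit where 13.9% of all genes passed. The 2-fold threshold held in 10 of 19 alternatives for Trex1 and in 14 of 19 for Xrcc5. The plot of all list genes sets these against the list medians.

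**Figure D4:**
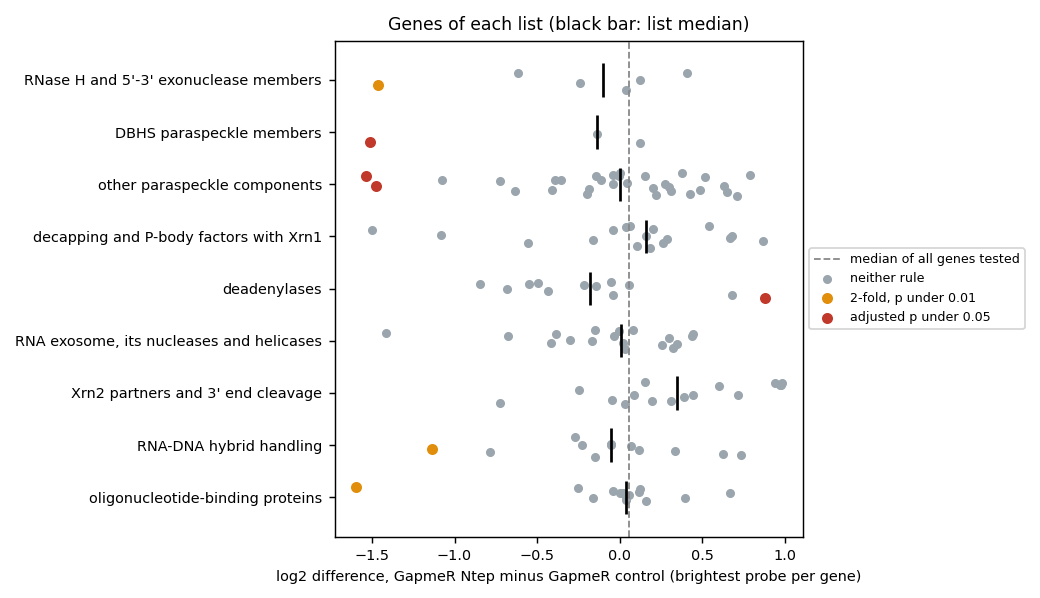
Log2 difference, GapmeR Ntep minus GapmeR control (x axis), of each tested gene by its brightest probe, in 9 rows for the 9 genes of interest in their 2 groups and the 7 lists; points are shifted vertically only to separate them. Black bars are list medians, the dashed line is the median of all genes tested at 0.06, orange points passed 2-fold with unadjusted p under 0.01 alone and red points passed an adjusted p of 0.05.

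Genes with the most similar signal over the 6 arrays are given as a description. Among 16700 genes well above background on all arrays, the highest Pearson r of log2 signal with Rnaseh1 was that of Setd8, a histone methyltransferase gene (r = 0.996). It was followed by an intergenic RNA probe named only by its position on chromosome 1 and by Blmh, which encodes bleomycin hydrolase (r = 0.991 each). For Pspc1 the closest were Vps54 (r = 0.997), which encodes a tethering subunit of the Golgi, Ubtd2 (r = 0.996) and Styx (r = 0.995). With only 6 arrays in 2 groups, r above 0.95 was reached by 153 genes for Rnaseh1 and by 166 for Pspc1, and these arrays share their experiments.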

How the data were processed

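The data were Agilent mouse arrays in 1 colour, with 3 arrays per GapmeR. The authors extracted spot intensity with Agilent Feature Extraction 10.7.3.1 and deposited background-subtracted intensity on a linear scale, not normalized between arrays. They also deposited quantile normalized intensity values, used as an alternative; no value of the 14 probes differed from it by more than 0.01 on the log2 scale.

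Spots of a probe were averaged, arrays quantile normalized, and values under 20 set to 20, after the study's methods. Log2 values were compared with limma 3.58.1 (R 4.3.3, with version 1.17.8 of data.table), unpaired and two-sided, after removal of probes whose mean stayed under 50 in both groups. Benjamini-Hochberg adjustment ran over all 30990 tested probes. Steps were tested on simulated data. Gene names are those of the array files, matched to older symbols in the lists. Members and lists were chosen with earlier results of these data known.

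Named genes are the 9 genes, Neat1, list genes that passed either threshold (at most 5 per list) and the 3 closest genes by Pearson r for Rnaseh1 and Pspc1. Residuals of arrays of the same experiment, as paired in the study's own array list, had an r of 0.466, 0.300 and 0.254, where arrays of different experiments had -0.327 to 0.126. The experiment number was therefore also fitted as a block. Other normalizations, background correction, floors, filters, outlier spots, variance models, array weights, the methods' t-test and omission of each array were alternatives. Omission of experiment 1 and the pair of Nono with the dimmer Sfpq probe were added after seeing the data. The number of arrays limits precision, and calls also depended on the model. Over all probes, 1642 passed after adjustment in the unpaired fit and 4292 with the block. Slide could not be compared, since all 6 arrays lay on 1. GapmeR sequences were not used here.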

Additional observations from a re-analysis of the deposited data

How the results depend on the processing

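Of the 14 probes, 1 passed after adjustment, where 5.30% of all probes did. With experiments as a replicate block 2 passed (Pspc1 and Rnaseh2c, against 13.8% of all probes), with an intensity trend 2 (8.74%), with probes well above background 3 (11.4%), with array weights 5 (33.1%), and 0 without an intensity limit (1.01%), with the methods' t-test (0.920%) or without experiment 1 (2.81%), the last chosen after seeing the data. Leaving out 1 array gave 0 to 1. The 2 probes past 2-fold with unadjusted p under 0.01 became 1 without an intensity limit and with the methods' t-test, 3 with an intensity trend and with probes well above background, and 1 to 3 without 1 array, with 3 without GapmeR Ntep replicate 2. Of list genes, 3 passed after adjustment (5.16% of all genes), against 9 with normexp (4.77%), 5 with a floor of 50 (5.97%), 0 without an intensity limit (1.13%), 9 with probes well above background (11.2%), 10 with the replicate block (13.9%), 11 with a trend (9.09%), 38 with array weights (33.6%), 0 with the methods' t-test (0.923%), 0 without experiment 1 (2.85%), and 0 to 3 without 1 array. List genes past 2-fold, 4 as reported, were 2 without an intensity limit, 9 with array weights, 2 with the methods' t-test and 2 to 10 without 1 array (2 without GapmeR control replicate 3, 10 without GapmeR Ntep replicate 2). Over all probes the adjusted calls ranged from 0 (without GapmeR control replicate 2 or GapmeR Ntep replicate 3) to 10260 (array weights), against 1642 as reported, 4292 with the block and 285 with the methods' t-test.

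Signs turned for Nono under 75th percentile scaling (0.10 and 0.047, or -0.12 and -0.17 relative to the median of all probes, which moved from 0.06 to 0.22), Rnaseh2b (-0.040) and Sfpq at position 2984 (-0.050) without GapmeR Ntep replicate 1, Xrn1 with array weights (-0.025), without GapmeR control replicate 1 (-0.13) and without GapmeR Ntep replicate 2 (-0.11), and Ntep without GapmeR Ntep replicate 2 (0.13). Leaving out 1 array at a time gave -0.040 to 0.28 for Rnaseh2b, -0.050 to 0.29 for Sfpq, -0.13 to 0.24 for Xrn1 and -1.06 to 0.13 for Ntep. None of these had passed a threshold, and the causes were not tested. The ratio of Nono to Sfpq turned from -0.26 to 0.31 with the dimmer Sfpq probe (added after seeing the data). The differences of Pspc1 from Nono and Sfpq kept their sign under the 3 other scalings tried. Adding the block changed the adjusted call of no probe of the 9 genes other than Rnaseh2c. Precision was limited by 3 arrays per group, and the exact permutation test cannot fall below 0.1.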
